A study of Mus musculus with 2 samples.

Results

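Cell division is driven by sets of genes that are switched on in turn, and 40 of them were followed here in leukocytes sorted from mouse tumours. They were 21 genes of mitosis, 15 genes of DNA replication, cyclin D1 (Ccnd1) and 3 genes of cyclin-dependent kinase inhibitors (Cdkn1a, Cdkn1b and Cdkn2a). The members were given by name, and all 40 were found by symbol among the 31053 features of the deposited count matrices. The cells came from tumours of mice bearing AB1-HA, a mouse mesothelioma line, and were sorted as live cells stained for CD45, the leukocyte surface phosphatase encoded by Ptprc. The 2 groups were mice that received a control antibody and mice that received an antibody against VEGF, a growth factor for blood vessels, with 1 single-cell library (10x Genomics 3-prime chemistry) per group. Both groups carried the AB1-HA tumour. Strain, age, dose, duration, antibody clone and the number of mice pooled in each library are not given in the sources used here. With 1 library per group there was no replicate, so differences are reported without tests and hold for these 2 libraries alone.

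A cell that commits to divide passes from G1 into S phase, where DNA is copied, and through G2 into mitosis. D-type cyclins such as cyclin D1 drive kinases that inactivate the retinoblastoma protein, which frees E2F factors to turn on the replication genes. The later mitotic genes are kept silent in resting cells by the DREAM complex and are switched on by B-Myb and FoxM1 complexes. The inhibitors p21 (Cdkn1a), p27 (Cdkn1b) and the products of Cdkn2a hold the kinases back or stabilise p53. Tissue macrophages and monocyte-derived macrophages can divide locally in tumours, whereas neutrophils and osteoclasts are end-stage cells that as a rule do not.

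The control library held 11687 barcodes with 233687412 UMIs (unique molecular identifiers, each standing for 1 captured transcript), and the anti-VEGF library held 8825 barcodes with 213948867 UMIs. The members took 0.311% and 0.264% of these UMIs. After the cell filter 10805 and 8159 cells were left, with median depths of 18265 and 22503 UMIs per cell. The cells were gated on marker genes, none of which was a member. The macrophage gate took 6156 control and 4441 anti-VEGF cells and had all 9 of its markers in at least 25% of cells of both libraries. The monocyte gate (199 and 278 cells) took cells outside the lineage, collagen and osteoclast-like gates with a UMI of both Ly6c2 and Ccr2. It had 4 of 5 markers at that share. Its cells also held a median of 8 (control) and 7 (anti-VEGF) of the 9 macrophage markers, against 8 in the macrophage gate of both libraries. The gate thus does not part monocytes from macrophages that hold these UMIs. The osteoclast-like gate (1296 and 751 cells, high in Acp5 and Ctsk) had 7 of 8 markers at that share. Another 420 and 593 cells had collagen genes and no Ptprc UMI at all, against the CD45 sort, and are described apart as collagen-expressing Ptprc-negative cells. In them 1 of 6 mesothelial or tumour markers reached 25% of cells, at 221 and 254 CPM for the list, and erythroid genes stood at 5.56 and 144 CPM. A level in CPM is the summed UMIs of a gene in a class, scaled to a common total per class. All intervals are exact, at 95%, and cover counting error only.

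The promoters of the mitotic and of the replication members carried different short sequences. Windows from 250 bases before to 50 after the transcription start (RefSeq, GRCm38.p6, the assembly also called mm10) were searched for 32 of the 40 members, which leaves out Ccna2, Aurkb, Tpx2, Kif20a, Gins2, Ccne2, Mcm4 and Ccnd1. The 4 windows that follow belong to 2 mitotic and 2 replication genes described in the results and show both patterns. Ccnb2 encodes cyclin B2, a partner of the mitotic kinase, on the minus strand at chr9:70421505-70421804. Ube2c encodes the ubiquitin-conjugating enzyme of the anaphase-promoting complex, on the plus strand at chr2:164769679-164769978. Mcm6 encodes a subunit of the replicative helicase, on the minus strand at chr1:128359656-128359955. Cdt1 encodes the licensing factor that loads the helicase, on the plus strand at chr8:122567765-122568064. Capitals mark the CHR element and the CCAAT box in Ccnb2 and Ube2c, and the E2F word in Mcm6 and Cdt1, on either strand.
Ccnb2: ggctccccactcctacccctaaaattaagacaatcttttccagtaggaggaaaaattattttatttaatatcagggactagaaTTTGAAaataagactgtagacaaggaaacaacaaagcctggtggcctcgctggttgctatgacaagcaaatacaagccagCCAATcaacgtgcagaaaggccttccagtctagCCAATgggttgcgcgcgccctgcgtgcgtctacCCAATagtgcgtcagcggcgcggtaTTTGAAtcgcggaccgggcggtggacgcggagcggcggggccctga
Ube2c: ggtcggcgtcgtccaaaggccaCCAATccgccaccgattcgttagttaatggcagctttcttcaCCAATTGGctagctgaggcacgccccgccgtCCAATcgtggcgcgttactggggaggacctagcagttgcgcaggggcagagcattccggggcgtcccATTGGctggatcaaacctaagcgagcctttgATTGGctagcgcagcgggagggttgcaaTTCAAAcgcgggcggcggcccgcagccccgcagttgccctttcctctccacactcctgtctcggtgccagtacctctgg
Mcm6: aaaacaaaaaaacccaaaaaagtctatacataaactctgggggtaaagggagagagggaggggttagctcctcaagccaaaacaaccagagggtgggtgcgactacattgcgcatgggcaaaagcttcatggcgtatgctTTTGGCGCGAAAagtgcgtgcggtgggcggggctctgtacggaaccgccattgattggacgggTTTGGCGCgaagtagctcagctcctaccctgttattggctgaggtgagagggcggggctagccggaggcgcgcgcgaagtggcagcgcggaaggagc
Cdt1: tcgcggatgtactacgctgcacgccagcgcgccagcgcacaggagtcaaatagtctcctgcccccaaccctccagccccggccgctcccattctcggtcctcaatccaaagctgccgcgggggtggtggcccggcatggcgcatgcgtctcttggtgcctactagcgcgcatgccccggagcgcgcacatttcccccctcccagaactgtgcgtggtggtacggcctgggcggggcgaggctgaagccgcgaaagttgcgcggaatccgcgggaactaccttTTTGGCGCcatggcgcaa

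The CHR element (TTTGAA or TTTAAA, searched on both strands) is the site bound by the DREAM and MuvB complexes, and the CCAAT box (CCAAT, both strands) is the site of NF-Y. Both stood in 14 of the 17 mitotic windows (82.4%), against 10.7% of all 32817 windows. CHR, with or without CCAAT, was found in 15 of 17 mitotic windows against 27.6% of all windows, and CCAAT in 15 of 17 against 37.4%. The E2F words TTTCCCGC, TTTGGCGC, TTTGCCGC and TTTCGCGC, which can overlap one another, were in 6 of 12 replication windows and 1 of 17 mitotic windows, against 2.26% of all windows. Of the replication windows 4 held CHR and 8 held CCAAT. A match is a match of letters and says nothing of whether a factor was bound in these cells.

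Over the 6 classes plotted by level, mitotic and replication genes were higher in macrophages, collagen-expressing Ptprc-negative cells, T cells and monocytes than in osteoclast-like cells, and lowest in neutrophils. In the control library the 21 mitotic members together stood at 2064 CPM in macrophages (2057 to 2072), 2582 in collagen-expressing cells, 1709 in T cells, 1402 in monocytes, 435 in osteoclast-like cells and 183 in neutrophils. The 15 replication members stood at 766, 1087, 561, 589, 219 and 54.8 CPM in the same order of classes. In the anti-VEGF library the mitotic sum was 1562 CPM in macrophages, 1898 in collagen-expressing cells, 2022 in T cells, 943 in monocytes, 527 in osteoclast-like cells and 149 in neutrophils. The replication sum there was 546, 731, 1160, 356, 200.2 and 134 CPM in the same order. T cells thus had higher sums of both sets in the anti-VEGF library, at 1709 (1602 to 1821) against 2022 CPM (1901 to 2148) for mitotic and 561 (500.2 to 626) against 1160 CPM (1069 to 1256) for replication genes. T cells numbered 61 and 50, so their levels rest on few cells, and the top 10% of them, 6 and 5 cells, held 55.6% and 59.9% of the replication UMIs.

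**Figure D1:**
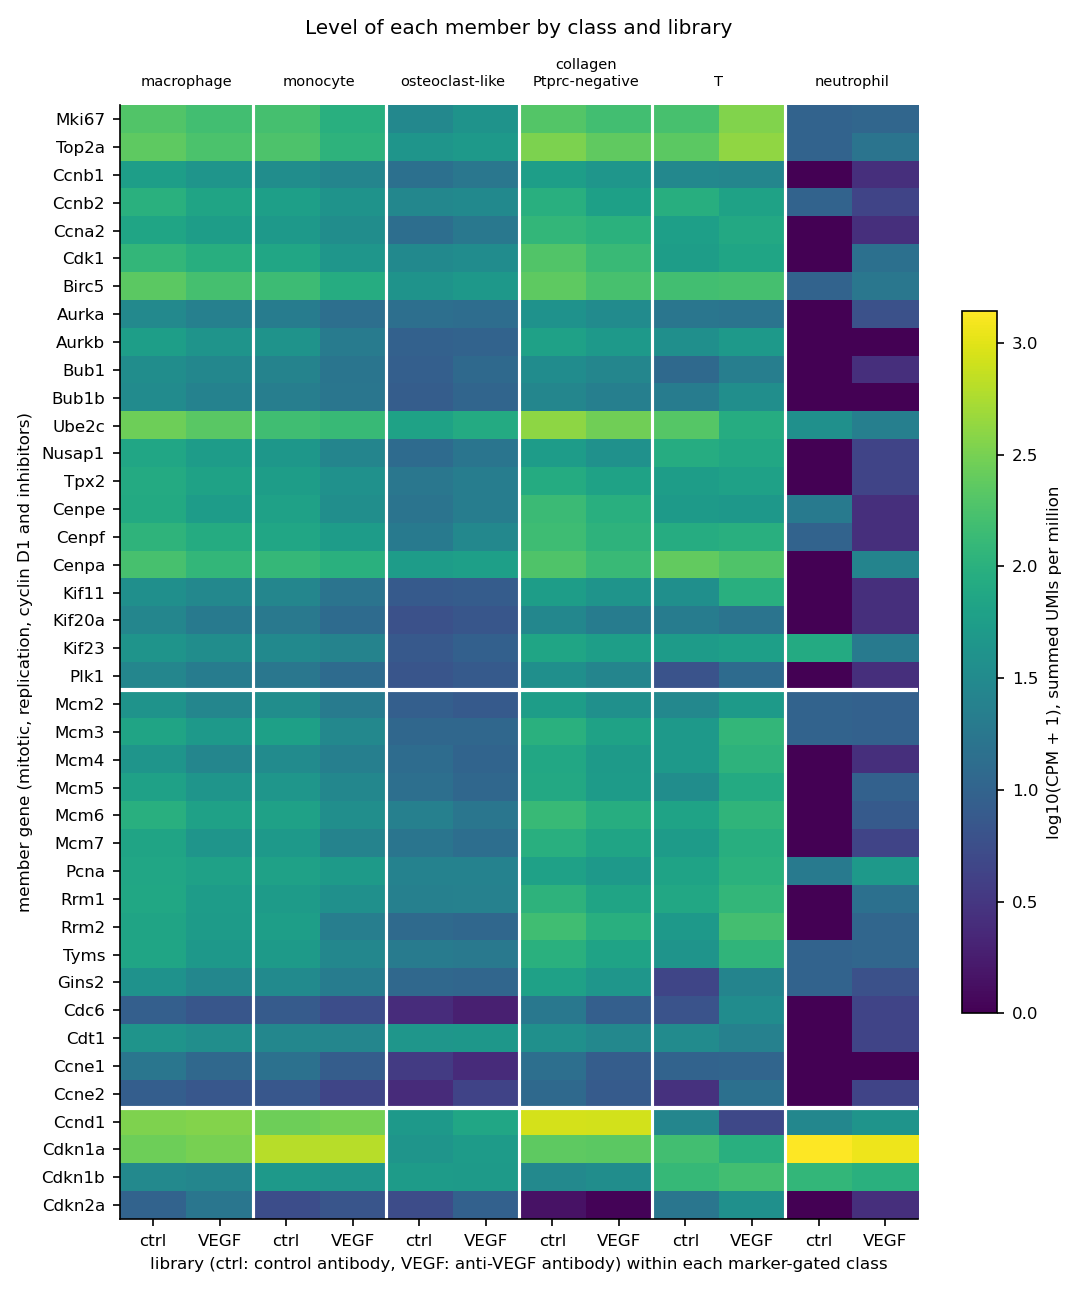
Level of each of the 40 members, as log10 of CPM plus 1 (colour), in 6 marker-gated classes (column pairs) of the control (ctrl) and anti-VEGF (VEGF) libraries; white lines part the mitotic, replication and cyclin D1 and inhibitor genes. Osteoclast-like cells and neutrophils are dark over both upper blocks, while Cdkn1a is brightest in neutrophils at 1387 and 1154 CPM.

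Of the 21 mitotic members, 15 were highest in the collagen-expressing Ptprc-negative cells in the control library, 3 in macrophages (Ccnb2, Bub1 and Bub1b), 2 in T cells (Nusap1 and Cenpa) and 1 in neutrophils (Kif23, from 9 UMIs). In the anti-VEGF library 11 were highest in the collagen-expressing cells, 7 in T cells and 3 in macrophages (Ccnb2, Bub1 and Tpx2). Replication members differed more between the libraries, with 12 of 15 highest in the collagen-expressing cells in the control library and 12 of 15 highest in the few T cells in the anti-VEGF library. Cdt1 was among the 3 replication members outside those classes in each library, with Pcna and Ccne1 (highest in macrophages) in the control library, and Gins2 (collagen-expressing cells) and Ccne1 (macrophages) in the anti-VEGF library. It was highest in the otherwise low osteoclast-like cells, at 44.3 and 45.1 CPM, where macrophages had 40.9 and 34.6 CPM. The intervals of the 2 classes overlapped narrowly in the control library and were apart in the anti-VEGF library. The share of all genes highest in each class was not counted, so the counts of members have no background to be set against.

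Cyclin D1 and the inhibitors followed other orders than the cycling genes. Ccnd1 was highest in collagen-expressing cells at 864 and 850 CPM, followed by macrophages, monocytes, osteoclast-like cells, neutrophils and T cells (26.9 and 3.84 CPM) in both libraries. Cdkn1a, which encodes p21, the inhibitor induced by p53, was highest in neutrophils and next in monocytes at 637 and 639 CPM, and lowest in osteoclast-like cells at 43.0 and 52.1 CPM. The neutrophil and monocyte intervals did not overlap in either library. Cdkn1b, which encodes p27, an inhibitor of resting cells, was highest in T cells (127 and 154 CPM) and neutrophils (119 and 97.1 CPM) and lowest in macrophages (28.9 and 26.9 CPM). Cdkn2a was highest in T cells, with only 9 and 19 UMIs, and macrophages came next at 9.13 and 16.3 CPM. Its UMIs come from the shared 3-prime end, so p16Ink4a and p19Arf transcripts cannot be told apart.

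A class sum cannot tell fewer cycling cells from less RNA of these genes per cell, so the members were also counted cell by cell. Each cell was thinned to 5000 UMIs, shallower cells were left out, and a cell with at least 3 different mitotic members was called mitotic-gene positive, with the same rule for replication members. Among macrophages the share positive for mitotic genes was 42.0% (40.7 to 43.4; 4937 control cells) and 28.1% (26.8 to 29.5; 4216 anti-VEGF cells). For replication genes the shares were 38.3% (36.9 to 39.6) and 26.2% (24.9 to 27.6). Both intervals were apart between the libraries. Without thinning the shares were 62.5% and 48.8% for mitotic genes and 63.2% and 56.1% for replication genes. The filter on depth left out 1219 control and 225 anti-VEGF macrophages.

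The libraries differed in how many macrophages were positive and less in how much each positive cell held. Positive cells had a mean of 18.9 mitotic UMIs of 5000 in control and 19.6 in anti-VEGF cells. Cells with both sets made up 23.8% and 16.0%, mitotic genes alone 18.2% and 12.1%, replication genes alone 14.4% and 10.2%, and neither set 43.5% and 61.7%. Cells with 10 or more mitotic members were 18.7% of control and 12.7% of anti-VEGF macrophages, and cells with none were 27.2% and 43.9%. The call is a range on a continuous count: 278 and 132 cells had exactly 3 mitotic members, and 480 and 307 had exactly 2, so many cells lay next to the limit. Positive cells were the deeper ones before thinning, with medians of 30766.5 UMIs against 21387 for other cells in the control library and of 32327 against 21746 in the anti-VEGF library.

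**Figure D2:**
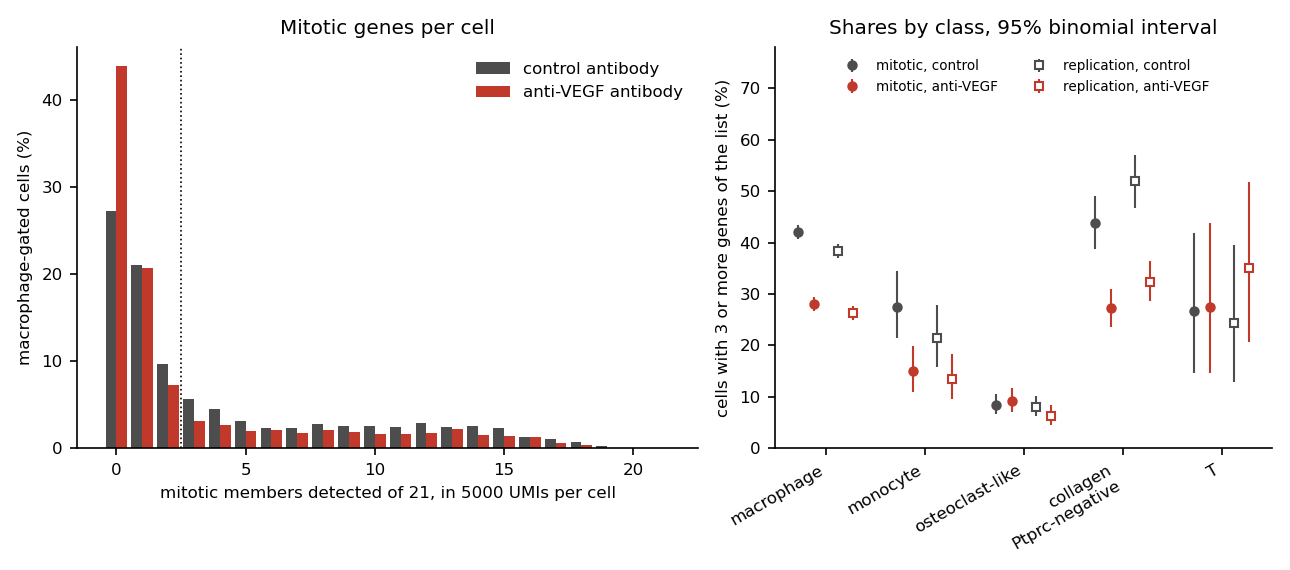
Left, share of macrophage-gated cells (%) by the number of the 21 mitotic members detected in 5000 UMIs per cell, for both libraries, with the limit of 3 dotted; right, share of cells with at least 3 mitotic (filled) or replication (open) members in 5 classes, with exact 95% binomial intervals. The anti-VEGF bar is the taller one at 0 genes (43.9% against 27.2%), and shares are lower in the anti-VEGF library in macrophages, monocytes and collagen-expressing cells.

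Classes that as a rule do not divide were measured in the same way. Osteoclast-like cells were positive for mitotic genes in 8.43% of 842 control and 9.13% of 635 anti-VEGF cells at 5000 UMIs. At that depth none of 11 mature dendritic cells was positive in either library. A count of 0 (taken as under 3 counts of the total) allows a share of up to 27.3% in each. This 3-count limit is not an exact interval, whose upper end for 0 of 11 is 28.5%. Neutrophils were too shallow for that depth (medians of 2387 and 2198 UMIs). At 2000 UMIs 0 of 34 control neutrophils were positive, which allows up to 8.82% by the same 3-count limit. In the anti-VEGF library 4 of 142 neutrophils (2.82%, 0.773 to 7.05) were positive. At that depth 31.0% and 21.7% of macrophages were positive.

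Within macrophages the mitotic members varied together from cell to cell more than the replication members. Over the 210 pairs of mitotic members the median Pearson correlation of thinned log counts was 0.375 in 4937 control cells and 0.393 in 4216 anti-VEGF cells. Ube2c with Cenpf, which encodes a kinetochore protein, had 0.659 and 0.667, and Birc5 (survivin, of the chromosomal passenger complex) with Ube2c had 0.650 and 0.682. Replication pairs had medians of 0.171 and 0.189, the closest being Rrm2 (the small subunit of ribonucleotide reductase) with Tyms (thymidylate synthase) at 0.375 and 0.373. Between the sets the median was 0.043 and 0.083. Top2a, the topoisomerase that untangles chromosomes, bridged them, with 0.408 and 0.494 against Rrm2. All cells share their library's chemistry and were thinned to 1 depth, and the values are descriptions.

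The genes outside the list that followed the summed mitotic UMIs most closely over 9153 macrophages were Hmgb2 (0.771), Stmn1 (0.730), Pclaf (0.717), Cdca8 (0.684), H2afz (0.673), Cks1b (0.647), H2afx (0.642), Prc1 (0.631), Cdca3 (0.620) and Tubb5 (0.618). Of these 10, 6 belong to the list of other mitotic genes. The mitotic UMIs were also the most concentrated of the 3 sets, with 62.1% of them in 616 control macrophages (the top 10%) and 68.1% in 444 anti-VEGF macrophages. For replication members the same share of cells held 47.0% and 49.5%, and for cyclin D1 and the inhibitors 34.9% and 31.5%.

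In macrophages all 21 mitotic members and all 15 replication members were lower in the anti-VEGF library. A ratio here is the anti-VEGF level divided by the control level, and a gene is counted as past 1.5-fold where that ratio lies beyond 1.5-fold in either direction. None of the 21 mitotic members was past 1.5-fold lower and 4 of the 15 replication members were, against 7.25% of the 13773 genes tested. Ratios below 1 were found for 68.3% of those genes. The median log2 ratio was -0.38 over the mitotic and -0.50 over the replication members, against -0.09 over all genes. With TMM, a scaling that corrects for composition, no member of either set was past 1.5-fold lower and all 36 ratios were still below 1.

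The mitotic ratios were narrowly spread, from 0.679 for Cenpe, the kinetochore motor, to 0.825 for Bub1, a checkpoint kinase. Ube2c stood at 279 CPM in control and 216 in anti-VEGF cells, a ratio of 0.777 (0.765 to 0.790). Top2a stood at 229 and 177 CPM (0.771), and Birc5 at 223 and 164 CPM (0.735). Mki67, the classic proliferation antigen, stood at 196 and 155 CPM (0.789). No mitotic member had an interval that reached 1, and the share of all genes with such an interval was not counted.

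The replication ratios were wider, from 0.632 to 0.881. Mcm4 (0.632), Mcm7 (0.644) and Mcm6 (0.645), subunits of the MCM ring that unwinds DNA, and Ccne1 (0.658), the cyclin that starts S phase, were the 4 past 1.5-fold. Mcm6 stood at 95.5 CPM in control and 61.6 in anti-VEGF cells, with an interval of the ratio from 0.626 to 0.663. Rrm1, the large subunit of ribonucleotide reductase, stood at 72.9 and 53.2 CPM (0.729), and Rrm2 at 68.3 and 51.9 CPM (0.760). Pcna, the sliding clamp that also serves DNA repair, had the ratio nearest to 1, at 70.4 and 62.0 CPM (0.881).

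Cyclin D1 and p21 did not follow the cycling genes in macrophages, and Cdkn2a went the other way. Ccnd1 stood at 342 CPM in control and 358 in anti-VEGF cells (1.045, 1.03 to 1.06), and thinning each cell turned its log2 ratio to -0.06. Cdkn1a stood at 281 and 317 CPM (1.13, 1.11 to 1.15). Cdkn1b stood at 28.9 and 26.9 CPM (0.931, 0.889 to 0.976), which TMM scaling moved to a log2 ratio of 0.00. Cdkn2a stood at 9.13 and 16.3 CPM, a ratio of 1.78 (1.66 to 1.92) from 1271 and 1901 UMIs, and was the 1 member past 1.5-fold higher, where 5.47% of all genes were.

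**Figure D3:**
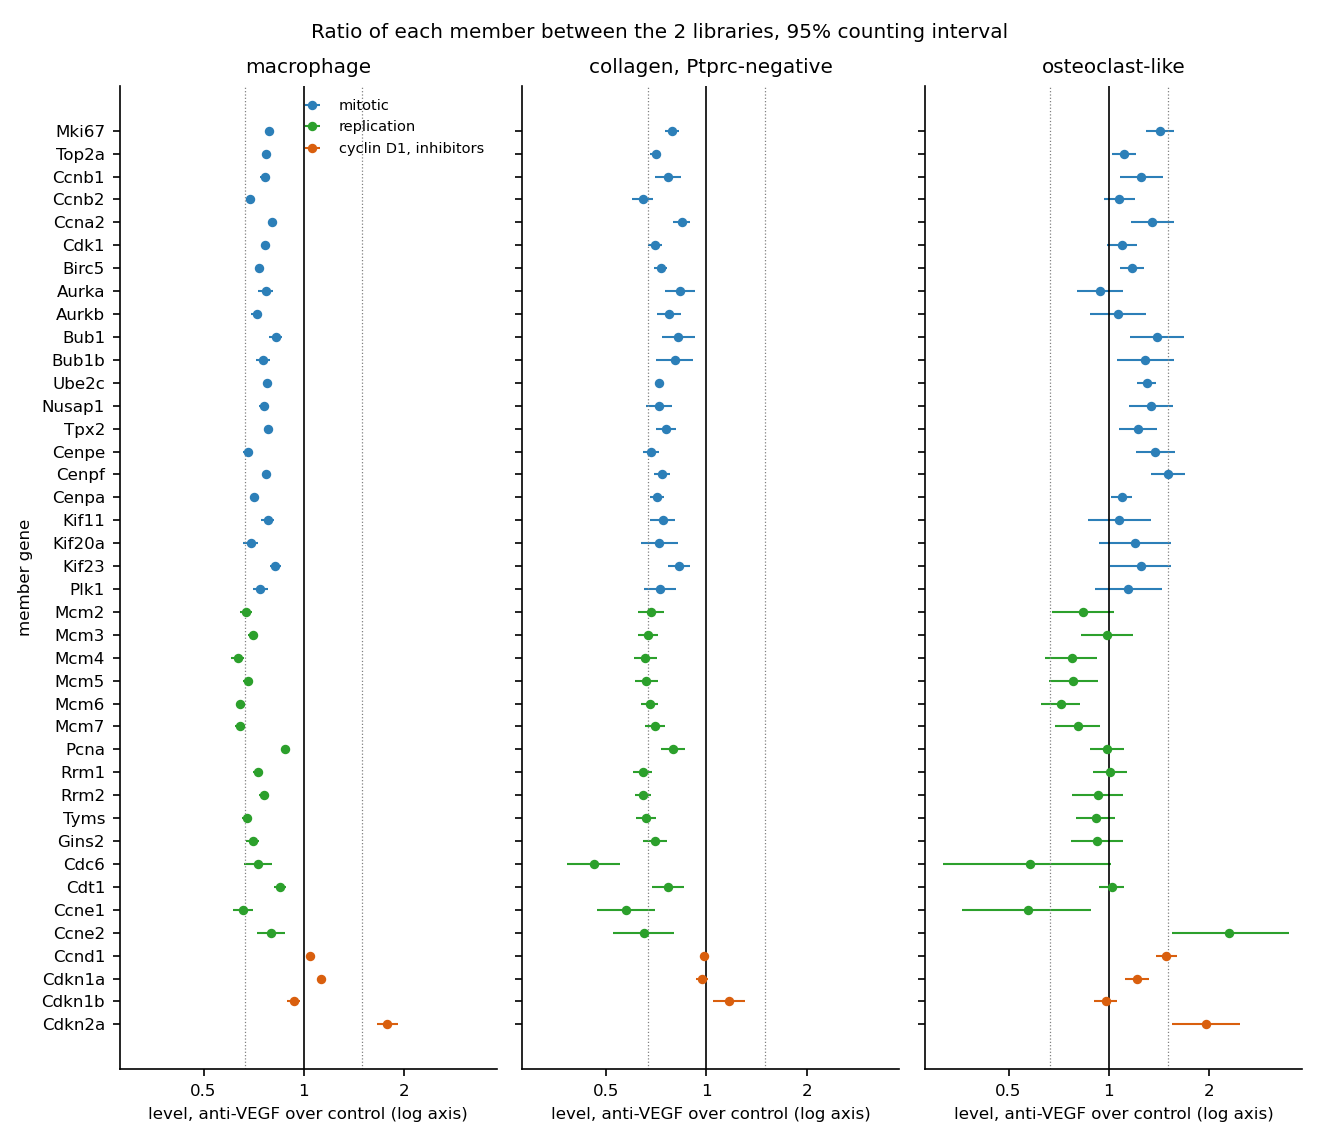
Ratio of each member's level, anti-VEGF over control (log axis), with its exact 95% counting interval, in macrophages, collagen-expressing Ptprc-negative cells and osteoclast-like cells; dotted lines mark 1.5-fold and the solid line a ratio of 1. In macrophages and collagen-expressing cells all mitotic and replication points lie below 1, while in osteoclast-like cells 20 of 21 mitotic points lie above 1.

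The lists of other mitotic and other replication genes were also mostly lower in macrophages, with shares past 1.5-fold near the 7.25% of all genes. Of 42 other mitotic genes 41 were lower, 3 of them past 1.5-fold: Cdc25c, the phosphatase that activates the mitotic kinase (0.652), Hmgb2 (0.653) and Cdc20, the activator of the anaphase-promoting complex (0.656). The highest of that list were Anln (0.981) and Cdc25b (1.03). Of 37 other replication genes 36 were lower, 4 of them past 1.5-fold, among them Prim1 (primase, 0.631), with Gins3 (0.877) and E2f2 (1.01) highest. Of 12 other G1 regulators 8 were lower, close to the 68.3% of all genes, and none was past 1.5-fold, with Skp2 at 0.747, Cdk4 at 0.799, Cdk6 at 1.16 and Ccnd3 at 1.18. Among 15 other inhibitors and p53 targets 8 were higher and 3 were past 1.5-fold higher, against 5.47% of all genes. The highest was Cdkn2b, the neighbour of Cdkn2a that encodes p15, at 2.82 and 6.36 CPM (2.26), followed by Gadd45a (1.59), while Btg2 (0.776) and Trp53 itself (0.786) were lowest.

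Hypoxia-marker UMIs moved with these differences, and the macrophages were therefore also compared at like marker levels. Cells were put into 4 bands by their thinned UMIs of 6 hypoxia markers (Ndrg1, Adm, Bnip3, Slc2a1, Ankrd37 and Egln3): none, 1 to 2, 3 to 5, and 6 or more. The control cells fell 38.8%, 35.1%, 15.7% and 10.3% into the bands, and the anti-VEGF cells 13.3%, 23.3%, 22.2% and 41.2%. The share positive for mitotic genes was lower with each band in both libraries, at 46.7%, 44.2%, 36.3% and 25.9% of control cells and 44.4%, 39.6%, 30.5% and 15.03% of anti-VEGF cells. The intervals of the libraries overlapped in the first 3 bands and were apart in the highest. Replication genes ran the same way, from 46.2% down to 19.4% in the control library, and from 49.6% down to 12.4% in the anti-VEGF library.

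With the bands weighted equally the mitotic share was 38.3% in control and 32.4% in anti-VEGF cells, a difference of -5.89 percentage points where the unweighted one was -13.9. The replication share was 33.5% and 31.4%, a difference of -2.12 in place of -12.0. Bands of class II markers or of resident-like markers left the mitotic shares at 42.0% and 27.9%, and at 41.2% and 26.9%. The marker bands were chosen after the differences were known, and the cause of the lower shares was not tested.

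**Figure D4:**
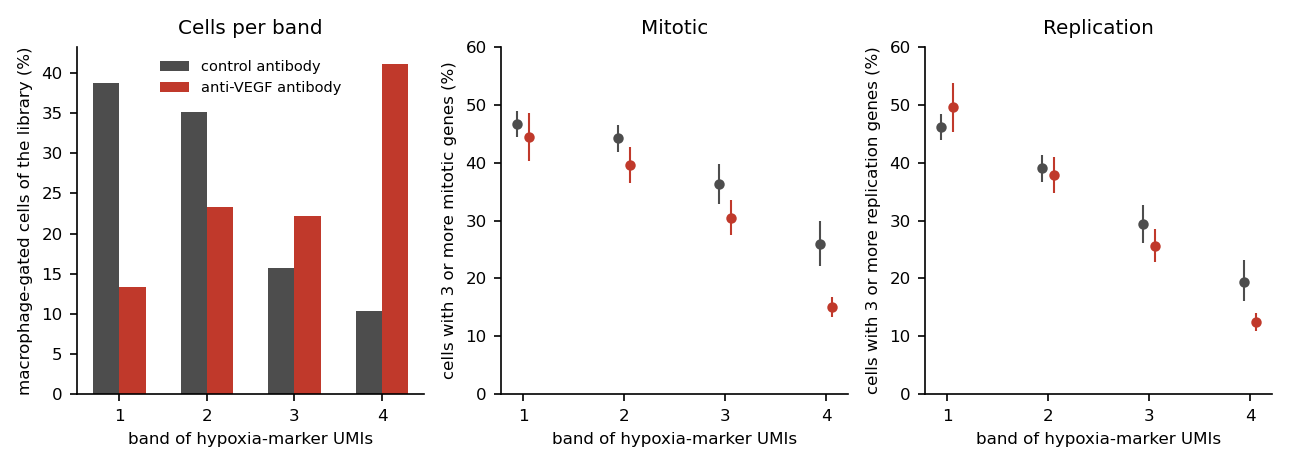
Left, share of each library's macrophages (%) in 4 bands of hypoxia-marker UMIs (band 1 none, band 2 with 1 to 2, band 3 with 3 to 5, band 4 with 6 or more in 5000 UMIs); middle and right, share of cells in each band (%) with at least 3 mitotic or replication members, with exact 95% binomial intervals. Control is dark and anti-VEGF red in each panel, and both shares step down from band 1 to band 4, where the mitotic share is 25.9% in control and 15.03% in anti-VEGF cells.

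The inhibitors and cyclin D1 differed from one another across the same bands. Cdkn1a was lowest in the lowest band, at 187 CPM in control and 176 CPM in anti-VEGF cells with overlapping intervals, and stood at 268 and 295 CPM in the next. In the 2 upper bands it was higher in control cells (455 and 462 CPM) than in anti-VEGF cells (348 and 353 CPM), with intervals apart. Its pooled level, at a ratio of 1.13, had the opposite direction to both upper bands. Ccnd1 was lower with each band, from 371 to 243 CPM in control and from 474 to 213 CPM in anti-VEGF cells. It was higher in the anti-VEGF library in the first 3 bands and lower in the highest, with intervals apart in each. Cdkn2a stood close together over the bands in the control library (6.997, 8.53, 7.46 and 9.41 CPM) and was higher in the anti-VEGF library in each (14.97, 14.9, 14.1 and 11.6 CPM), with intervals apart in the first 3 bands and overlapping in the fourth.

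Cdkn2a was highest in the very macrophages that held most mitotic genes. In cells with 0, 1 to 2, 3 to 9 and 10 or more mitotic members its thinned level was 5.06, 6.46, 9.20 and 12.6 CPM in the control library. In the anti-VEGF library it was 8.65, 12.7, 17.8 and 25.8 CPM. The intervals of the end groups were apart in both libraries (3.50 to 7.07 against 9.53 to 16.2, and 6.86 to 10.8 against 20.1 to 32.7). The level at 10 or more over that at none was 2.48 (1.60 to 3.91) in control and 2.99 (2.13 to 4.18) in anti-VEGF macrophages. It was found in 5.63% and 10.9% of cells with 10 or more mitotic members, against 2.23% and 3.30% of cells with none. The counts are small, at 58 and 69 UMIs in the cells with 10 or more. The summed level of the macrophage markers was lower in the cells with 10 or more mitotic members than in those with none, at 10792 against 18646 CPM in control and 8772 against 11294 CPM in anti-VEGF cells, and its part in the result was not tested.

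Cyclin D1 and p21 varied less over the same groups of macrophages. Ccnd1 stood at 321, 361, 354 and 332 CPM in control cells and at 303, 346, 382 and 325 CPM in anti-VEGF cells. Cdkn1a stood between 279 and 292 CPM in the control library and between 288 and 333 CPM in the anti-VEGF library. Mcm6 peaked in cells with 3 to 9 mitotic members, at 134 and 113 CPM, and was lower at 10 or more, at 87.9 and 80.5 CPM. Rrm2 was highest at 10 or more, at 139 and 166 CPM. In the collagen-expressing Ptprc-negative cells, by contrast, Ccnd1 was higher in each group with more mitotic genes, from 437 to 980 CPM in control cells and from 459 to 1148 CPM in anti-VEGF cells. There Cdkn1a went from 151 to 305 CPM and from 188 to 330 CPM between the end groups.

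**Figure D5:**
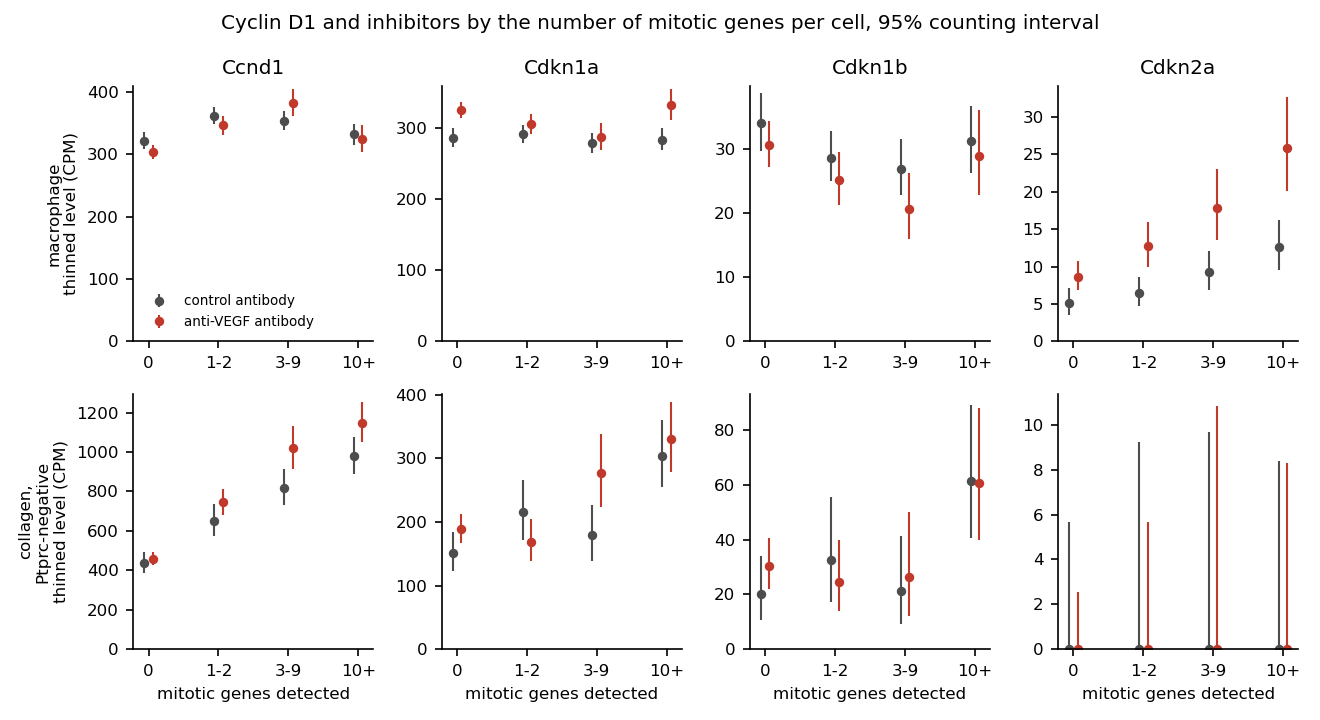
Thinned level (CPM, linear axis from 0) of Ccnd1, Cdkn1a, Cdkn1b and Cdkn2a in cells grouped by how many of the 21 mitotic members they held in 5000 UMIs, with exact 95% Poisson intervals, in macrophages (top) and collagen-expressing Ptprc-negative cells (bottom). Cdkn2a steps up with mitotic genes in macrophages of both libraries (5.06 to 12.6 and 8.65 to 25.8 CPM) and had no thinned UMI in the collagen-expressing cells, where Ccnd1 steps up instead.

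Monocyte-gated cells, most of which also held macrophage markers, showed larger differences on fewer UMIs. All 21 mitotic and all 15 replication members were lower in the anti-VEGF library, 11 of each past 1.5-fold, against 6.1% of 9858 genes, and no member was past 1.5-fold higher, against 6.09%. Across all genes 55.7% had a ratio below 1. With TMM scaling 9 and 10 were past 1.5-fold, and 14 of 15 replication members stayed below 1. The medians were -0.56 and -0.67 on the log2 scale, against -0.04 over all genes. Rrm2 stood at 57.0 CPM in control and 20.9 in anti-VEGF cells (0.367, 0.298 to 0.451), Aurkb, the kinase of the chromosomal passenger complex, at 40.7 and 19.1 CPM (0.470), and Mcm3 at 59.3 and 28.6 CPM (0.483). Ube2c was the mitotic member nearest to 1 (150 and 131 CPM, 0.877) and Cdt1 the replication member nearest to 1 (0.987). Top2a had a ratio of 0.590, Birc5 of 0.628, Mcm6 of 0.557 and Rrm1 of 0.723.

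The share of monocytes positive for mitotic genes was 27.6% (21.4 to 34.4) among 196 control cells and 15.04% (11.0 to 19.9) among 266 anti-VEGF cells, with intervals apart. For replication genes it was 21.4% and 13.5%, with overlapping intervals. Cdkn1a had a ratio of 1.00 (637 and 639 CPM, interval 0.958 to 1.05), Ccnd1 stood at 282 and 303 CPM (1.08), and Cdkn2a at 24 and 37 UMIs had a wide interval (1.26, 0.735 to 2.20). Thinning turned the log2 ratios of Ccnd1 and Cdkn2a to -0.06 and -0.28. Cdkn1b stood at 49.7 and 44.4 CPM (0.893, 0.753 to 1.06). The median depth of monocytes was 20709 UMIs in control and 14491.5 in anti-VEGF cells, opposite to macrophages. Of the other mitotic genes 40 of 41 were lower and 23 past 1.5-fold, with Ncaph (0.428) and Cdca2 (0.447) lowest. Of the other replication genes all 36 measured were lower and 21 past 1.5-fold, with Pole, a leading-strand polymerase subunit (0.310), and Gins1 (0.376) lowest. Among 14 measured inhibitors and p53 targets 9 were higher, 4 of them past 1.5-fold. Phlda3 (2.25, 0.965 to 5.84) was highest, from 8 control and 22 anti-VEGF UMIs. Cdkn2b (2.21, 1.04 to 5.11) came next, from 10 and 27 UMIs. The others past 1.5-fold were Mdm2 (1.55, 1.37 to 1.75) from 423 and 800 UMIs and Zmat3 (1.51, 0.906 to 2.56) from 25 and 46. The intervals of Phlda3 and Zmat3 reached 1. Of all 9858 genes tested in monocytes 55.7% were lower, 6.1% were past 1.5-fold lower and 6.09% past 1.5-fold higher.

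The collagen-expressing Ptprc-negative cells had the same direction as macrophages, with the replication genes further apart than the mitotic ones. All 21 mitotic members were lower in the anti-VEGF library, 1 of them past 1.5-fold, against 5.03% of 11665 genes, with 62.4% of all ratios below 1. The 1 was Ccnb2, at 94.2 and 60.6 CPM (0.643, 0.600 to 0.691), and with TMM scaling no mitotic member was past 1.5-fold. All 15 replication members were lower and 8 were past 1.5-fold, which TMM scaling reduced to 2. Cdc6, the licensing ATPase, stood at 17.2 and 7.88 CPM (0.459, 0.382 to 0.552) and Ccne1 at 13.0 and 7.49 CPM (0.575). Rrm1 (0.644) and Rrm2 (0.647) were also past 1.5-fold, and Mcm6, at 131 and 88.9 CPM (0.677), was just short of it. The mitotic members with the most UMIs stood close to the median ratio of their set (0.736), with Ube2c at 0.723, Top2a at 0.704 and Birc5 at 0.730. The medians were -0.44 and -0.58, against -0.07 over all genes.

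Cells positive for mitotic genes made up 43.9% (38.8 to 49.0) among 374 control and 27.2% (23.6 to 31.0) among 577 anti-VEGF collagen-expressing cells. For replication genes the shares were 51.9% and 32.4%. Ccnd1 (864 and 850 CPM, 0.983, 0.962 to 1.00) and Cdkn1a (231 and 224 CPM, 0.969) were near 1 and turned above 1 with TMM scaling, with thinning and without cells that also held markers of another lineage. Cdkn1b alone of the 39 members measured there had a ratio with its interval above 1, at 28.9 and 33.9 CPM (1.17, 1.05 to 1.31). No member was past 1.5-fold higher, against 4.48% of all genes. Cdkn2a, with 7 and 2 UMIs in all, was not measured in these cells. Of the other mitotic genes all 42 were lower, 4 past 1.5-fold, and of the other replication genes all 37, 12 past 1.5-fold. Among all genes 62.4% were lower and 5.03% past 1.5-fold lower. Gins3 (0.476) and E2f8 (0.512) were the lowest replication genes.

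Osteoclast-like cells went the other way for mitotic genes. Of the 21 mitotic members 20 were higher in the anti-VEGF library, 14 with an interval above 1, and 1 was past 1.5-fold, against 3.29% of 11436 genes, while 58.7% of all ratios were below 1. The 1 was Cenpf, at 18.7 and 28.1 CPM (1.504, 1.34 to 1.69). Ube2c stood at 63.9 and 82.9 CPM (1.30, 1.21 to 1.39), Mki67 at 28.1 and 39.97 CPM (1.42), and Aurka, the spindle-pole kinase, was the 1 below 1 (0.941). Top2a (1.11) and Birc5 (1.17) were higher by less. The median was 0.28, against -0.04 over all genes. The share of all genes with an interval above 1 was not counted, so the 14 members have no background to be set against. Of the replication members 12 of 15 were lower, with a median of -0.13, or 10 of 15 with TMM scaling, and 2 were past 1.5-fold lower, against 4.01% of all genes. Mcm6 stood at 22.7 and 16.2 CPM (0.716, 0.627 to 0.817) and Rrm2 at 11.1 and 10.3 CPM (0.927).

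The mitotic UMIs of osteoclast-like cells lay in few cells. The share positive for mitotic genes was 8.43% (6.64 to 10.5) of 842 control cells, which is 71 cells, and 9.13% (7.01 to 11.6) of 635 anti-VEGF cells, which is 58 cells, with overlapping intervals. The direction of this difference turned at 10000 UMIs per cell, where it was -2.22 percentage points. The positive cells held a mean of 15.03 mitotic UMIs of 5000 in control and 17.9 in anti-VEGF cells. The top 10% of cells, 130 and 75, held 81.1% and 87.7% of all mitotic UMIs of the class. Cells with markers of another lineage were 4.23% and 10.3% of the positive cells (3 and 6 cells). Without such cells the median log2 ratio of the mitotic members was 0.24, and that of Cenpf 0.48, no longer past 1.5-fold. Of the other mitotic genes 37 of 42 were higher, where 58.7% of all genes were lower. None was past 1.5-fold higher, against 3.29% of all genes. Cdc25c (1.46, 0.901 to 2.37, from 35 and 39 UMIs) and Ckap2 (1.45, 1.07 to 1.97) had the highest ratios. Stmn1 (0.884) and Hmgb2 (0.922) had the lowest.

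Single members stood out among the osteoclast-like cells on small counts. Ccne2, the second E-type cyclin, had 41 and 72 UMIs (1.45 and 3.33 CPM, 2.30, 1.55 to 3.46), whereas Ccne1 had 71 and 31 UMIs (0.572, 0.363 to 0.884). Cdc6 had 43 and 19 UMIs (0.579, 0.319 to 1.02). Cdkn2a stood at 4.31 and 8.42 CPM (1.96, 1.55 to 2.48), a ratio close to that of macrophages (1.78). Ccnd1 stood at 48.0 and 71.4 CPM (1.49, 1.38 to 1.60) and Cdkn1a at 43.0 and 52.1 CPM (1.21). Rrm1 and Cdkn1b were within counting error of 1 (1.01 and 0.980).

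Cdt1 stood apart from the summed replication members in these cells. In osteoclast-like cells without any mitotic member its thinned level was 39.2 CPM (31.6 to 48.0) in control and 47.6 CPM (38.6 to 58.2) in anti-VEGF cells. Macrophages without mitotic members had 28.1 (24.3 to 32.4) and 22.9 CPM (19.9 to 26.2), so that the intervals of the 2 classes just overlapped in the control library and were apart in the anti-VEGF library. The 15 replication members together ran opposite, at 139 (124 to 154) and 115 CPM (101 to 131) in such osteoclast-like cells against 308 (295 to 322) and 218 CPM (209 to 228) in such macrophages. Among them Mcm6 stood at 12.2 and 8.44 CPM in the former against 42.4 and 29.0 CPM in the latter, and Gins2, of the GINS complex of the helicase, at 6.32 and 3.97 against 18.0 and 11.1 CPM. Tyms stood at 8.84 and 5.96 CPM against 14.3 and 11.0 CPM.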

How the data were processed

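The authors deposited unnormalised UMI counts of 2 libraries. The submitters' processing notes name Cell Ranger 3.0.2 and mm10, whereas per the file headers the software was version 3.1.0. The 35 barcode sequences found in both libraries were treated as different cells. Cells with at least 500 UMIs, 300 genes and at most 10% mitochondrial UMIs were kept. Classes were gated with at least 5 of 9 macrophage markers, 4 of 7 collagen markers, 4 of 7 neutrophil markers or 3 of 6 T-cell markers. Osteoclast-like cells had at least 50 UMIs per 10000 of each of Acp5 and Ctsk. Monocytes had a UMI of both Ly6c2 and Ccr2, whatever their macrophage markers. The gate thresholds were set after the data were seen. No doublet caller was run. Cells that met 2 gates (286 and 245) were set aside, and the ungated cells (2158 and 1394) were not compared. Collagen-expressing cells with a Ptprc UMI (109 and 145) were not compared gene by gene.

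Within each library the UMIs of a class were added up and scaled by the class total (CPM). Log2 ratios used a pseudocount of 1 CPM, and a gene was tested in a class with at least 30 UMIs. Intervals were Poisson for levels, conditional binomial for ratios and Clopper-Pearson for shares, at 95%. The ratio step was run on simulated Poisson counts, which follow the assumption of the intervals and hold no variation between cells. For thinning, the mean number of genes detected was compared between simulated cells of unequal depth. The share of positive cells was not simulated. Members, lists and tests were chosen with earlier results of these data known. Named are the 3 mitotic and 3 replication members with the most UMIs, cyclin D1 and the inhibitors, the 3 highest and 3 lowest ratios of a class, any member singled out by a small count, the 10 genes that followed the mitotic sum most closely, and the ends of each pathway list, of which 1 is not reported here. Mki67, Pcna, Cdt1, Bub1, Cenpe, Gins2, Tyms, Mdm2 and Zmat3 were named after their values were seen. Python 3.11.15, numpy 2.4.6, pandas 2.3.3, scipy 1.17.1 and matplotlib 3.10.9 were used.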

Additional observations from a re-analysis of the deposited data

Results flagged for a closer look

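The mitotic members ran opposite in osteoclast-like cells and in macrophages, monocytes and collagen-expressing Ptprc-negative cells, the 4 classes compared gene by gene. The few T cells (61 and 50) also had a higher mitotic sum in the anti-VEGF library, at 1709 and 2022 CPM. Of these UMIs 69.5% and 68.8% lay in 6 and 5 cells. Collagen-expressing cells with a Ptprc UMI (109 and 145 cells) were not compared gene by gene. Their mitotic sum was 2170 CPM (2134 to 2206) in control and 2100 CPM (2071 to 2129) in anti-VEGF cells. Markers of another lineage were found in 62.4% and 62.1% of them. The median log2 ratio of the mitotic members, anti-VEGF over control, was 0.28 in osteoclast-like cells and -0.38 in macrophages. Of the 21 members, 14 had an interval above 1 in osteoclast-like cells and below 1 in another class. The share of all genes with such a pattern was not counted. These intervals cover counting error only, while 81.1% and 87.7% of the mitotic UMIs of osteoclast-like cells lay in the top 10% of cells. The shares of osteoclast-like cells positive for mitotic genes had overlapping intervals, and the direction of their difference turned at greater depth. Ccne2, an E-type cyclin, had a ratio of 2.30 in osteoclast-like cells from 41 and 72 UMIs, and 0.796 in macrophages. Cdkn1b, the p27 gene, had a ratio of 1.17 in collagen-expressing Ptprc-negative cells and 0.931 in macrophages. With 1 library per group, the differences between classes were not tested.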

How the results depend on the processing

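All settings kept the lower shares and lower medians of macrophages in the anti-VEGF library, and 18 of the 36 recomputed main values moved. The difference in the mitotic share, -13.9 percentage points, was -9.31 at 2000 UMIs, -16.4 at 10000 UMIs, -16.4 with at least 2 genes, -9.58 with at least 5 and -5.89 with hypoxia bands weighted equally. The difference in the replication share, -12.0, was -6.19, -16.9, -15.9, -7.25 and -2.12 under the same settings. The mitotic median log2 ratio, -0.38, was -0.28 with TMM scaling, -0.37 without cells holding markers of another lineage, -0.52 with cells thinned and -0.36 with at least 7 of 9 macrophage markers. The replication median, -0.50, was -0.40 with TMM, -0.53 with a stricter cell filter, -0.53 with cells thinned and -0.48 with 7 of 9 markers. The band weighting and the 7-marker gate were chosen after seeing the data, and the cause was not tested. Of 262 values of single members recomputed over 50 pairs of member and class, 15 changed sign, and none of a member past 1.5-fold did. The mitotic share of osteoclast-like cells, a difference of 0.70, was -2.22 at 10000 UMIs and -2.84 with at least 2 genes. No paired analysis was possible because each group has 1 library and no replicate numbers. Depth limits Cdkn2a, Cdc6 and the E-type cyclins most.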

Other observations

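Barcodes that failed the cell filter (882 control and 666 anti-VEGF) also held members, at 673 and 313 CPM for the mitotic set, 264 and 164 CPM for the replication set, and 188 and 169 CPM for cyclin D1 and the inhibitors. All 3 sums were below those of macrophages in the same library.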
